A study of Mus musculus with 12 samples.

Results

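The aryl hydrocarbon receptor (*Ahr*) and the genes known as its battery were examined in C57MG cells, a mouse mammary epithelial cell line, by taking every non-control spot whose gene name in the scanner files was 1 of 10 symbols: *Ahr*, *Ahrr*, *Arnt*, *Arnt2*, *Cyp1a1*, *Cyp1a2*, *Cyp1b1*, *Nqo1*, *Tiparp* and *Aldh3a1*. These symbols had 15 distinct probes on 24 spots, out of 41174 probes on 43379 spots. The cells had grown in medium with serum and insulin, were moved to plain DMEM and received 1 of 4 additions for 24 h: the BSA vehicle, recombinant human Rspo2 at 100 ng/ml, recombinant mouse Wnt3a at 100 ng/ml, or both proteins at those doses. Each group had 3 biological replicates, each on its own single-color array, and all were 1 cell line with no genetic change named. The comparisons asked whether a rise of the receptor mRNA was accompanied by a rise of the mRNAs of its target genes.

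The receptor is a ligand-activated transcription factor of the bHLH-PAS family that waits in the cytoplasm with Hsp90 and moves to the nucleus when it binds planar aromatic ligands such as dioxins or tryptophan metabolites. There it pairs with Arnt and binds short DNA elements with the core GCGTG, which switches on *Cyp1a1*, *Cyp1a2* and *Cyp1b1*, the cytochromes that oxidize such ligands, together with the enzyme genes *Nqo1* and *Aldh3a1* and the feedback genes *Ahrr* and *Tiparp*. Its mRNA level and its activity are separate quantities, and these arrays measured mRNA only.

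The scanner software flags spots that are well above background. A probe so flagged on every array of some group, that is on 3 of 3, was counted as detected, and 22751 probes were. Of the 15 probes, 9 were detected, all of them on all 12 arrays: those of *Ahr*, *Tiparp*, *Aldh3a1* and *Nqo1*, 4 probes of *Arnt* and 1 of the 2 probes of *Cyp1b1*. The other 6 probes, of *Ahrr*, *Arnt2*, *Cyp1a1*, *Cyp1a2* (2 probes) and *Cyp1b1*, were not detected in any group and did not enter the main fit. Levels below are relative signals, the processed signal divided by the 75th percentile of all probes on the same array (774 to 1150 intensity units over the 12 arrays), and between 51.3% and 64.2% of probes were well above background on an array. Changes are on the log2 scale with their standard error (SE), p-values come from limma with Benjamini-Hochberg adjustment over the whole set of detected probes, and calls required both an adjusted p under 0.05 and a 2-fold difference or more. "Rose" and "fell" are used for an adjusted p under 0.05, and it is said where the change was under 2-fold.

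The 12 arrays lay on 3 slides. The BSA arrays shared slide 1 with 1 Rspo2 array, slide 2 held 2 Rspo2 and 2 Wnt3a arrays, and slide 3 held 1 Wnt3a array and the 3 combination arrays, so that no slide held BSA with Wnt3a or with the combination. Luminal epithelial markers gave little signal in this line: *Krt18*, *Krt19*, *Cdh1* and *Epcam* were not detected, and *Krt8* was dim (summed relative signal of the list 0.0824 to 0.0905 with BSA and 0.0353 to 0.0464 with both proteins). Of the basal or myoepithelial markers 4 of 5 were detected, and their summed signal was 132 to 140 on the BSA arrays, 170 to 192 on those of Rspo2, 185 to 205 on those of Wnt3a and 219 to 258 on those of both proteins. Of the fibroblast markers 4 of 5 were detected (197 to 218 with BSA and 215 to 222 with both). *Ptprc*, *Emr1*, *Pecam1*, *Adipoq* and *Plin1* were not detected, while *Cd68* and *Cdh5* were. With both proteins *Krt8* fell by 1.15 on the log2 scale. Of the basal markers *Krt14* (1.24) and *Acta2* (0.78) rose, *Trp63* fell by 0.40 and *Krt5* (0.22) did not pass the test, and of the fibroblast markers *Pdgfra* fell by 1.37 while *Col1a1* (-0.07), *Col1a2* (-0.19) and *Vim* (0.17) did not pass. *Krt5*, a dim probe, had fallen by 0.84 with Rspo2 and 0.57 with Wnt3a, so the basal sum does not describe every marker. That sum is mostly *Acta2*, with a mean intensity of 160000 units against 14400 for *Krt14*, 1220 for *Trp63* and 44.8 for *Krt5*. The fibroblast sum is mostly *Vim* (128000) and *Col1a1* (56900). The part of these marker shifts in the results that follow was not tested.

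With Wnt3a and with both proteins, *Ahr* had the largest rise of the detected members. Its relative signal was 0.686, 0.554 and 0.524 on the 3 BSA arrays and 0.584, 0.641 and 0.577 on the Rspo2 arrays. With Wnt3a it was 1.24, 1.30 and 1.15, and with both proteins 4.02, 4.17 and 4.57. The BSA and Rspo2 arrays overlapped, every Wnt3a array lay above all of them, and every array with both proteins lay above every Wnt3a array. Of all detected probes 43.5%, 45.5% and 54% had no overlap with BSA with Rspo2, Wnt3a and both. Between Wnt3a and both this share was 21.4%. Of the 9 detected member probes 5, 5, 5 and 3 lay apart in these comparisons. Groups that lie apart, here and below, are read against these shares. In bulk RNA a change in the number of cells that carry a transcript and a change in the transcript per cell cannot be told apart.

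Against BSA, *Ahr* changed by 0.04 with Rspo2 (SE 0.11, 95% interval -0.20 to 0.28, adjusted p = 0.827 by limma), rose by 1.07 with Wnt3a (SE 0.11, 2.11-fold, adjusted p = 0.000174) and rose by 2.86 with both proteins (SE 0.11, 7.27-fold with a 95% interval of 6.17 to 8.57, adjusted p = 5e-08). The rise with both proteins was the 29th largest among the 22751 probes. Both proteins exceeded Wnt3a alone by 1.79 (3.45-fold, adjusted p = 9.5e-06). The interaction (the joint change less the sum of the separate ones) was 1.75 (SE 0.15, adjusted p = 0.000217), so the joint rise was 3.36-fold above the product of the separate changes. Wnt3a exceeded Rspo2, when compared directly, by 1.04 (adjusted p = 0.00152), but with normexp background correction the adjusted p of this difference was 0.403 (0.88) and that of the interaction 0.0963 (1.58).

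The *Ahr* probe was printed at 10 spots on every array, and all 10 were well above background on all 12 arrays. After 2 spot values had been left out as outliers or uneven, the coefficient of variation among the spots of an array was 2.82% to 7.9%. These spots share 1 culture per array and measure technical spread only.

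**Figure D1:**
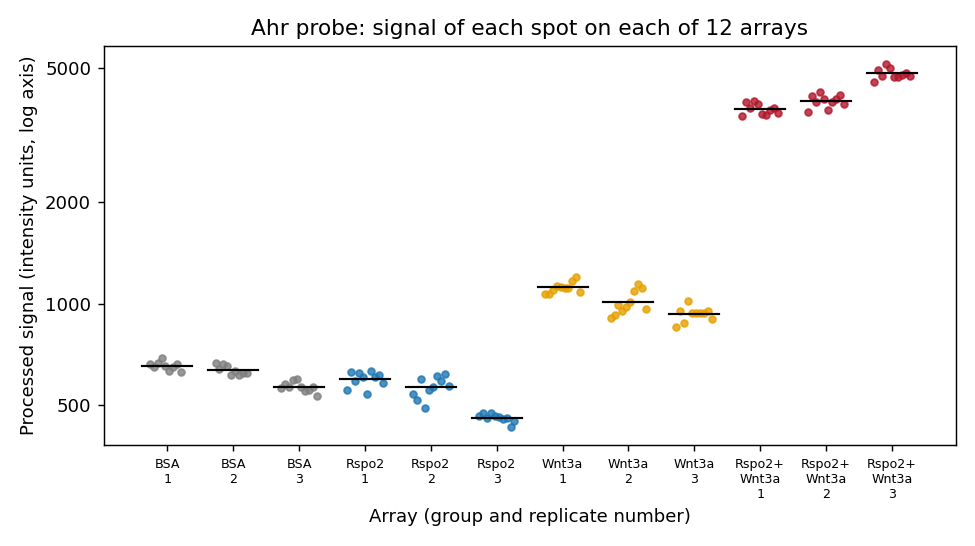
Processed signal of the *Ahr* probe (vertical log axis, intensity units before scaling between arrays) at each of its spots on each of the 12 arrays (horizontal axis), with the array mean as a line. The BSA and Rspo2 arrays have means of 457 to 653, the Wnt3a arrays 928 to 1120, and the arrays with both proteins 3780 to 4830.

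Within slides, the 1 Rspo2 array of slide 1 differed from its 3 BSA arrays by 0.00 on the log2 scale, the 2 Wnt3a arrays of slide 2 exceeded its 2 Rspo2 arrays by 1.06, and the 3 combination arrays of slide 3 exceeded its 1 Wnt3a array by 1.88. In a fit with slide as a fixed term the rise with both proteins was 2.94 (SE 0.26, adjusted p = 0.0013) and the interaction 1.88 (adjusted p = 0.0114), but the rise with Wnt3a alone, 1.06, lost its call (adjusted p = 0.0642). With slide as a random block the Wnt3a rise was 1.06 (adjusted p = 0.000535). It lay close to the 2-fold limit, and without BSA replicate 3 it was 1.00 (adjusted p = 0.001), just under 2-fold.

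The 5 probes whose relative signals on the 12 arrays were most like those of *Ahr*, among 19218 probes compared, were *Rab30* (Pearson r = 0.995), *Rhou* (0.992), *Tcf7* (0.992), *Smim3* (0.99) and the clone 9530076L18 (0.99). *Tcf7*, which encodes a DNA-binding partner of β-catenin, had changes of 0.12, 1.07 and 2.57 with Rspo2, Wnt3a and both, and *Rhou* had -0.01, 1.15 and 3.68. The points share the same 12 arrays and scaling, so these values are a description. Among the other detected members the likeness to *Ahr* ran from r = 0.964 for *Tiparp* and 0.848 for *Aldh3a1* through 0.392 for *Cyp1b1* and -0.103 for *Nqo1* to -0.408 for 1 *Arnt* probe.

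*Arnt* encodes the partner that the receptor needs to bind DNA. Its 4 probes are named here by the sequence each represents in the files. The relative signals of U14333 averaged -0.84 on the log2 scale with BSA and -0.90 with both proteins, and its changes of -0.14, -0.08 and -0.06 with Rspo2, Wnt3a and both did not pass the test. The probes AK028546 (-0.26, -0.16 and -0.15) and NM_009709 (-0.20, -0.24 and 0.01) did not pass it either. The dimmest probe, AK037762, fell by 0.67, 0.77 and 0.71 with Rspo2, Wnt3a and both (SE 0.21 each; adjusted p = 0.0486, 0.0171 and 0.0189), in each case by under 2-fold.

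The relative signal of AK037762 was 0.108, 0.0919 and 0.0888 with BSA, 0.0587, 0.046 and 0.081 with Rspo2, 0.0477, 0.0744 and 0.0502 with Wnt3a, and 0.0599, 0.0563 and 0.0594 with both proteins. All 9 treated arrays lay below the 3 BSA arrays, which is read against the shares without overlap given for *Ahr*. The probe's processed signal was 40.4 to 105 intensity units, near the lowest signals that were well above background (15.4 to 43.8 over the arrays), and its change with Rspo2 was 0.32 (adjusted p = 0.811) with normexp background correction. Within slides AK037762 differed by -0.71, -0.04 and 0.22 on slides 1, 2 and 3, and with slide as a fixed term none of its 3 differences from BSA passed the test (adjusted p = 0.312, 0.462 and 0.691). With slide as a random block the adjusted p values were 0.0664, 0.0353 and 0.0539, so only the difference with Wnt3a passed. The differences with Rspo2, Wnt3a and both did not pass in 20, 9 and 9 of 27 alternatives, which include leaving out single arrays, and that with Rspo2 turned its sign in 1 more. With Rspo2 and with Wnt3a all 4 *Arnt* probes had negative values, of which only those of AK037762 passed, and the difference between probes was not tested. *Arnt2*, a related partner, was well above background on 1 of 12 arrays, BSA replicate 3, and its signal was 19.7 to 39.7 units with BSA and 4.66 to 21.7 units in the treated groups. The probe did not enter the main fit. Its mean log2 relative signal was -5.2 with BSA, -6.81 with Rspo2, -7.27 with Wnt3a and -6.02 with both. In alternatives that kept dimmer probes it was called, as given at the end. No difference in *Arnt2* could be read at this signal.

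The feedback genes differed in detection. *Tiparp* encodes a poly-ADP-ribose polymerase family enzyme that restrains the receptor. Its relative signal was 2.05, 1.89 and 1.79 with BSA, 2.07, 2.21 and 2.22 with Rspo2, 2.76, 3.11 and 2.75 with Wnt3a, and 3.72, 3.69 and 3.96 with both proteins. The 4 groups followed each other in this order with no overlap, although the lowest Rspo2 array was only just above the highest BSA array.

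*Tiparp* changed by 0.18 with Rspo2 (SE 0.08, adjusted p = 0.133), rose by 0.59 with Wnt3a (1.5-fold, adjusted p = 0.00096) and rose by 0.99 with both (1.99-fold, 95% interval 1.75 to 2.25, adjusted p = 1.09e-05), which is just under the 2-fold limit. The rise from Wnt3a to both was 0.40 (adjusted p = 0.0195) and that from Rspo2 to Wnt3a 0.40 (adjusted p = 0.0378). The interaction was 0.22 (95% interval -0.04 to 0.47, adjusted p = 0.236) and did not pass the test. Within slides the differences were 0.12 on slide 1, 0.40 on slide 2 and 0.46 on slide 3, in the order given for *Ahr*. With slide as a fixed term the rise with both was 0.98 (adjusted p = 0.0355), while the differences of Wnt3a from BSA (0.52, adjusted p = 0.183), of both from Wnt3a (0.46, adjusted p = 0.122) and of Wnt3a from Rspo2 (0.40, adjusted p = 0.133) did not pass, and with normexp background correction too the rise with both (1.01, adjusted p = 0.00299) was the only one to pass. The step from Wnt3a to both also did not pass without Wnt3a replicate 1 or without combination replicate 2 or 3 (adjusted p = 0.0755, 0.065 and 0.0759). With slide as a random block the rises with Wnt3a and with both passed (adjusted p = 0.00282 and 4.7e-05). So did the steps from Wnt3a to both and from Rspo2 to Wnt3a (adjusted p = 0.0237 and 0.0359).

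*Ahrr* encodes the repressor that competes with the receptor for Arnt. Its probe was well above background on none of the 12 arrays, with 8.19 to 15.5 intensity units with BSA and 5.36 to 13.1 with both proteins. No difference in *Ahrr* could be read at this signal.

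The promoters of *Tiparp*, *Ahrr*, *Cyp1a1* and *Cyp1b1* are shown because each holds the receptor's binding core, while only *Tiparp* and 1 probe of *Cyp1b1* were detected. They run from 250 bases before to 50 bases after the gene's start in the RefSeq annotation of GRCm38.p6, each written 5′ to 3′ on the gene's own strand, at chr3:65528197-65528496 (plus strand) for *Tiparp*, chr13:74292282-74292581 (minus) for *Ahrr*, chr9:57697363-57697662 (plus) for *Cyp1a1* and chr17:79715012-79715311 (minus) for *Cyp1b1*. Capitals mark GCGTG, or CACGC where it lies on the other strand.
Tiparp: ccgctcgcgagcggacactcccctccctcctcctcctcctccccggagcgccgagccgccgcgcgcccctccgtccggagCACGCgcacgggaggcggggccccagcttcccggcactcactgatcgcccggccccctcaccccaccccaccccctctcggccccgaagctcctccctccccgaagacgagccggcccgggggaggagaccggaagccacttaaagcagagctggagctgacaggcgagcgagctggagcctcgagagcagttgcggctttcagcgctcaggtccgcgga
Ahrr: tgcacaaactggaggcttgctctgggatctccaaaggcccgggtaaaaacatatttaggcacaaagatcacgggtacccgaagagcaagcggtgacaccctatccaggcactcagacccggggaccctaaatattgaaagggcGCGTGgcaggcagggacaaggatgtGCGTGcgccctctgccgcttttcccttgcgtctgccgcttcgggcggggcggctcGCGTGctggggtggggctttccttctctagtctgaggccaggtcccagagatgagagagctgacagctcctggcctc
Cyp1a1: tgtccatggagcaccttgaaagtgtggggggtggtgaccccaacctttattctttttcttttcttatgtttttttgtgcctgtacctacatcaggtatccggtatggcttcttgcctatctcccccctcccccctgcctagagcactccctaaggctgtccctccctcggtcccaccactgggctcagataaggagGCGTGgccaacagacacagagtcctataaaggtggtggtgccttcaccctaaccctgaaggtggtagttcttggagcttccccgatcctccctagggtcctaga
Cyp1b1: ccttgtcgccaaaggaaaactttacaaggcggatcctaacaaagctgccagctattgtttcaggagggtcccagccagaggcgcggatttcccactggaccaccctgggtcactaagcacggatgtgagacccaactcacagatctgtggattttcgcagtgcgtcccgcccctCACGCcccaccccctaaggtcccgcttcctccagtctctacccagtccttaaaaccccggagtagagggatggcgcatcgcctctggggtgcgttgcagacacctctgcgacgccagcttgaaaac

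GCGTG was present 1 time in the promoters of *Tiparp*, *Cyp1a1*, *Cyp1b1* and *Arnt* and 3 times in that of *Ahrr*, and these letters were not in the windows of *Arnt2*, *Cyp1a2* and *Nqo1*. Of all 32851 promoters of this length, 32.4% held it on either strand and 3.91% held it at least 3 times. The Tcf/Lef motif CTTTGTT was in the *Cyp1b1* window (5.85% of all promoters), and CTTTGAT was in none of the 8 windows (3.73% of all). The motifs do not overlap each other here, and a match in so short a window describes the letters only.

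No cytochrome gene passed the test in any comparison with BSA, and *Cyp1a1* and *Cyp1a2* were not detected. *Cyp1a1*, the usual reporter of receptor activity, was well above background on none of the 12 arrays. On the BSA arrays its processed signal was 4.71 to 9.04 intensity units. It was 3.14 to 10.3 units on the Rspo2 arrays, 4.57 to 4.89 on the Wnt3a arrays and 4.12 to 5.01 on the arrays of both proteins, where *Ahr* was highest. Every one of these values lay below the lowest signal that was well above background on any array, 15.4 units. Both probes of *Cyp1a2* were likewise not well above background on any array, at 3.19 to 24.7 units. No fold is given for these genes, since neither side of any comparison was well above background.

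**Figure D2:**
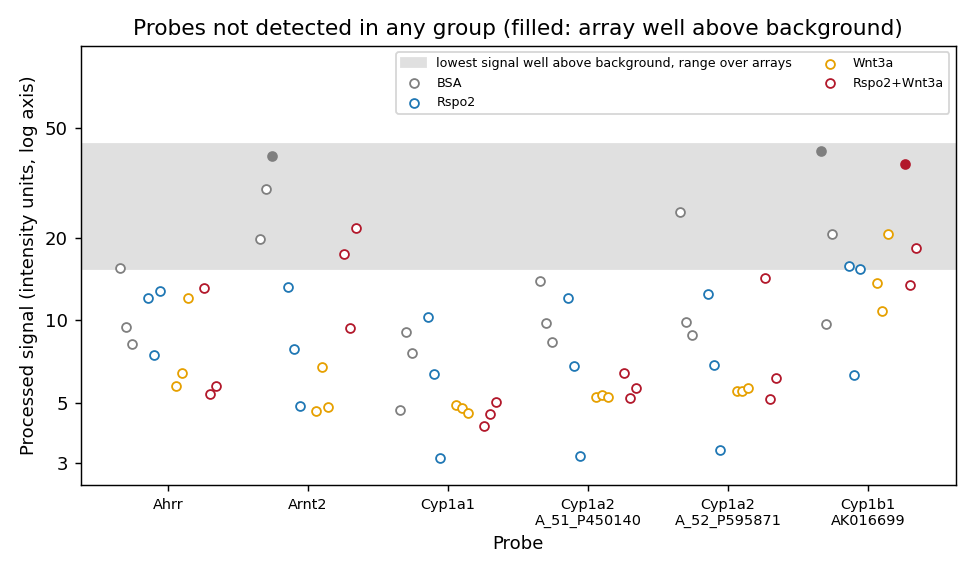
Processed signal (vertical log axis, intensity units) of the 6 probes that were not detected in any group, 3 arrays per group, with filled points for the arrays on which a probe was well above background. The grey band spans 15.4 to 43.8 units, the range over the 12 arrays of the lowest signal well above background, and all *Cyp1a1* points lie below it.

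*Cyp1b1*, which oxidizes estrogens as well as aromatic ligands, was detected with its probe NM_009994 at a relative signal of 2.39, 2.29 and 2.47 with BSA and 2.06, 2.41 and 2.14 with Rspo2. With Wnt3a it was 3.06, 3.0 and 2.52, and with both proteins 2.48, 2.49 and 2.57. The Wnt3a arrays lay above the BSA arrays, and the arrays with both proteins lay just above them. The changes were -0.12 with Rspo2 (adjusted p = 0.39), 0.26 with Wnt3a (SE 0.09, adjusted p = 0.0523) and 0.08 with both (95% interval -0.12 to 0.28, adjusted p = 0.54), none of which passed the test. The second probe, AK016699, was well above background on 2 of 12 arrays.

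The other enzyme genes differed from each other. *Aldh3a1* encodes an aldehyde dehydrogenase that clears reactive aldehydes. Its relative signal was 2.0, 2.29 and 2.14 with BSA, 3.43, 2.61 and 3.31 with Rspo2, 2.71, 2.92 and 3.43 with Wnt3a, and 6.04, 5.20 and 4.72 with both proteins. All arrays with both proteins lay above all others, all BSA arrays lay lowest, and the Rspo2 and Wnt3a arrays overlapped. No overlap with BSA was also seen for 43.5%, 45.5% and 54% of all detected probes with Rspo2, Wnt3a and both.

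*Aldh3a1* rose by 0.53 with Rspo2 (1.45-fold, SE 0.13, adjusted p = 0.0279), by 0.49 with Wnt3a (1.41-fold, adjusted p = 0.0183) and by 1.31 with both (2.47-fold, 95% interval 2.02 to 3.04, adjusted p = 4.79e-05). The rise from Wnt3a to both was 0.82 (adjusted p = 0.00601), the direct difference of Wnt3a from Rspo2 was -0.04 (95% interval -0.34 to 0.25), and the interaction was 0.28 (95% interval -0.14 to 0.70, adjusted p = 0.344). Within slides the differences were 0.68, -0.06 and 0.62 on slides 1, 2 and 3. With slide as a fixed term none of the 4 rises had an adjusted p under 0.05: 0.68 with Rspo2, 0.62 with Wnt3a, 1.24 with both and 0.62 from Wnt3a to both (adjusted p = 0.157, 0.282, 0.062 and 0.175). With slide as a random block all 4 rises passed (adjusted p = 0.0356, 0.0266, 0.00019 and 0.011), so the 2 slide fits differ. With normexp background correction only the rise with both had an adjusted p under 0.05 (1.32, adjusted p = 0.00641). The adjusted p of the rise with Rspo2 was also above 0.05 without BSA replicate 1, 2 or 3 or Rspo2 replicate 1 or 3, at 0.46 to 0.58, and that with Wnt3a without BSA replicate 1 (0.44) or Wnt3a replicate 3 (0.40).

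*Nqo1* encodes a quinone reductase that answers both to this receptor and to the stress factor Nrf2. Its relative signal was 0.0725, 0.0928 and 0.0861 with BSA, 0.0834, 0.0943 and 0.128 with Rspo2, 0.0981, 0.0953 and 0.0908 with Wnt3a, and 0.099, 0.0869 and 0.0825 with both proteins. The groups overlapped throughout. The changes of 0.27, 0.18 and 0.10 (SE 0.15; adjusted p = 0.235, 0.381 and 0.648) did not pass the test, and the 95% interval of the last, -0.24 to 0.43, leaves room for a rise of up to 1.35-fold.

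**Figure D3:**
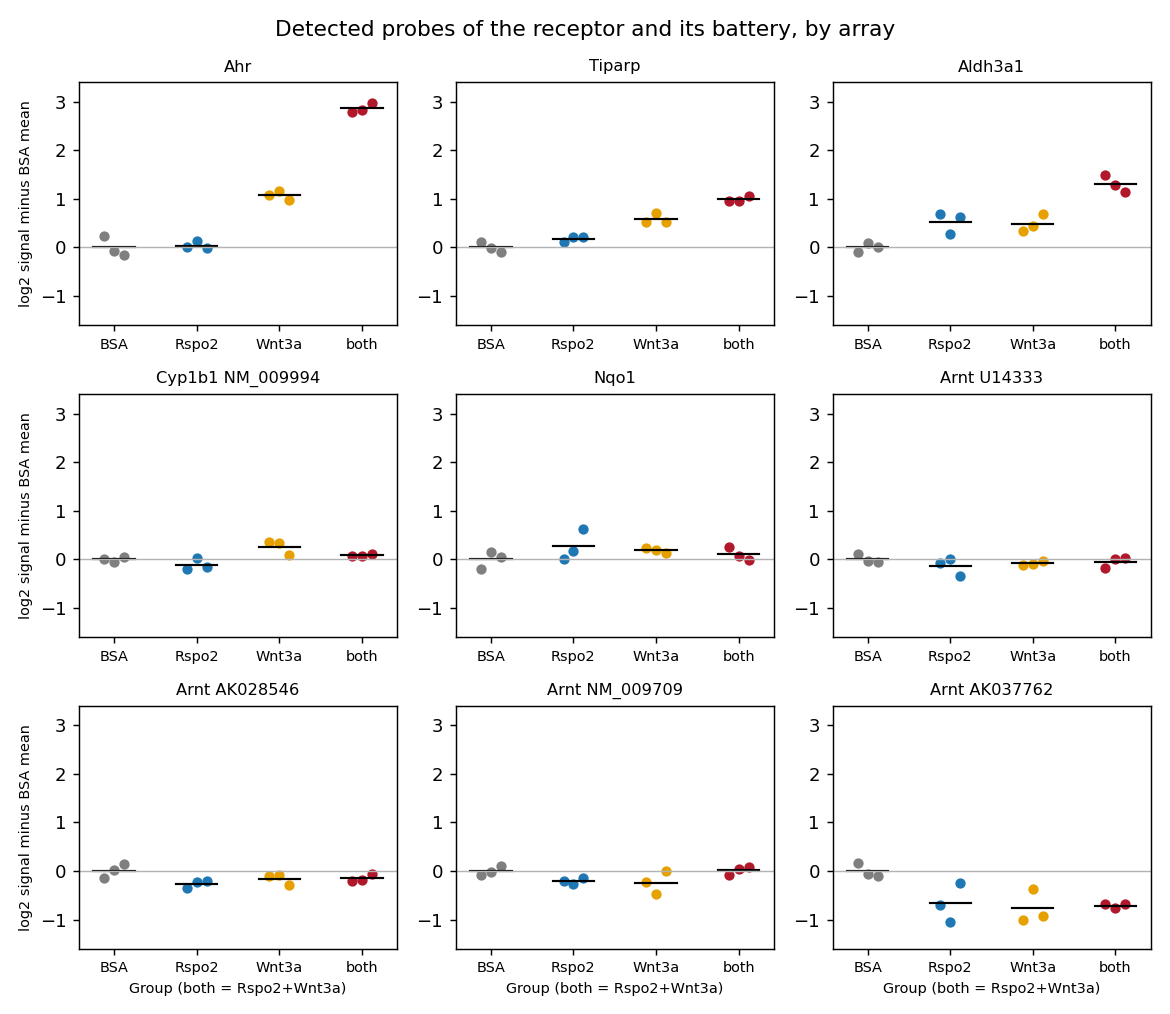
Log2 relative signal of the 9 detected probes minus the BSA mean of the same probe (vertical axis), by group (horizontal axis), with 1 point per array and a line at the group mean of 3 arrays. *Ahr* rises to a mean of 2.86 with both proteins and *Tiparp* and *Aldh3a1* to 0.99 and 1.31, while *Cyp1b1*, *Nqo1* and 3 of the *Arnt* probes stay within 0.27 of BSA in every group mean.

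Counted over the 9 detected probes, 0 were called with Rspo2 against a background of 0.721% of all 22751 probes. With Wnt3a 1 was called (*Ahr*, background 2.52%) and with both proteins 2 (*Ahr* and *Aldh3a1*, background 5.08%). With Rspo2 4 of the 9 had an unadjusted p under 0.05 by limma and 1 by the methods' t-test. The share of all probes under an unadjusted p is not given here, so these 2 counts have no background. From Wnt3a to both proteins 1 was called (*Ahr*, background 0.747%), and 1 had a called interaction (*Ahr*, background 1.93%). By adjusted p alone, 1 rose and 1 fell with Rspo2 (background 16.8%), 3 rose and 1 fell with Wnt3a (31.5%), 3 rose and 1 fell with both (39.2%), 3 rose from Wnt3a to both (4.27%), 1 had an interaction (8.9%) and 2 were higher with Wnt3a than with Rspo2 (1.47%). The median change of the 9 probes was -0.12, 0.18 and 0.08 with Rspo2, Wnt3a and both, beside 0.01, 0.00 and 0.04 over all probes tested. With counts this small and with 4 probes from *Arnt*, the shares near the background carry no result about the members as a group. The probes of 1 gene are not replicates, and which transcripts each of them matches was not checked.

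**Figure D4:**
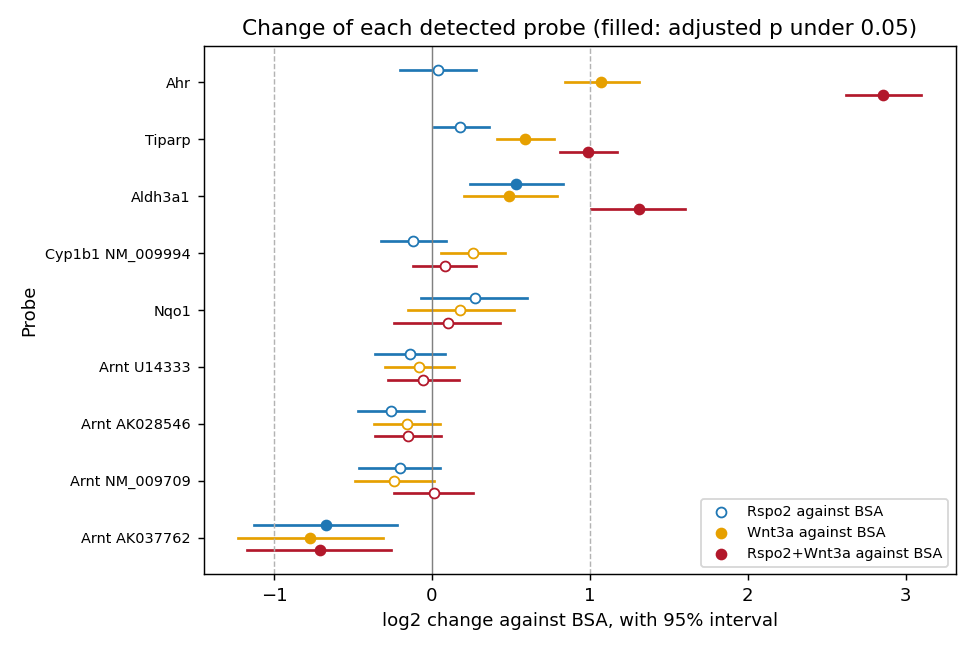
Log2 change against BSA (horizontal axis) of each detected probe with its 95% interval, for Rspo2, Wnt3a and both proteins, filled where the adjusted p was under 0.05 and with dashed lines at 2-fold. *Ahr* and *Aldh3a1* pass the right line with both proteins, and *Tiparp* at 0.99 falls just short of it.

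Other genes of the pathway were taken from 5 lists, each gene by its brightest detected probe. All 15 chaperones and cofactors of the receptor were detected, and none changed by 2-fold. By adjusted p alone 2 rose and 1 fell with Rspo2, 2 rose and 1 fell with Wnt3a, and 3 rose and 1 fell with both, with 5, 5 and 6 of the 15 under an unadjusted p of 0.05 (2, 4 and 5 by the methods' t-test). Over all probes 16.8%, 31.5% and 39.2% passed the adjusted p with Rspo2, Wnt3a and both. The adjusted p counts of this list and of those that follow are read against these shares. The share of all probes under an unadjusted p is not given here, so the unadjusted counts have no background. The median change of the 15 genes with both was 0.04, the same as over all probes. The risers with both proteins included *Ptges3*, the Hsp90 co-chaperone p23 (0.27), and *Rbx1*, a ubiquitin ligase subunit (0.53), and the coactivator *Ncoa1* fell by 0.45. These 3 were chosen after their values were seen.

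Of 15 other bHLH-PAS factors, the family the receptor belongs to, 9 were detected, and 1, 2 and 3 fell with Rspo2, Wnt3a and both, while the others did not pass the test (medians -0.12, -0.30 and -0.15). These counts of 9 are near or below the shares over all probes. *Hif3a*, a regulator of the hypoxia response, was called in all 3 comparisons and fell by 1.18, 1.08 and 1.03 (SE 0.29; adjusted p = 0.026, 0.0167 and 0.0165). Its relative signal was 0.0843, 0.17 and 0.212 on the BSA arrays and 0.0536 to 0.0864 on the 9 treated arrays, so that BSA replicate 1 overlapped the treated range. The falls lost their calls without BSA replicate 2 or 3 (at -0.75 to -1.06) among other single arrays, and with normexp background correction the fall with Rspo2 was -0.18 (adjusted p = 0.866). *Hif1a* was detected and *Epas1* was not.

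Of 20 other known targets of the receptor 18 were on the array by name and 10 were detected. With Rspo2 1 rose and 1 fell, with Wnt3a 4 rose and with both 1 rose and 3 fell, beside medians of 0.14, 0.00 and 0.14, and these counts of 10 are near the shares over all probes. *Inmt*, a methyltransferase of tryptamine, was the 1 called target: its relative signal was 0.0615, 0.0556 and 0.0617 with BSA, 0.127, 0.116 and 0.155 with Rspo2, 0.0493, 0.0582 and 0.0563 with Wnt3a and 0.0368, 0.0411 and 0.0355 with both. It was highest on all 3 Rspo2 arrays and lowest on all 3 arrays with both proteins. It rose by 1.15 with Rspo2 (2.21-fold, adjusted p = 0.000858), fell by 0.66 with both (adjusted p = 0.00137), and had an interaction of -1.68 (SE 0.16, adjusted p = 0.000434). The probe was dim, and with normexp background correction neither the rise (0.94, adjusted p = 0.702) nor the interaction (-1.24, adjusted p = 0.913) kept its call. The riser with both proteins was *Ptgs2*, the inducible cyclooxygenase (0.58, adjusted p = 0.000425), which had also risen with Wnt3a (0.40). The targets that fell with both, besides *Inmt*, were *Xdh*, which makes uric acid (-0.90), and the signaling inhibitor *Socs2* (-0.52). *Ptgs2*, *Xdh* and *Socs2* were chosen after their values were seen.

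All 17 genes of the Nrf2 battery, the antioxidant set that shares *Nqo1* with the receptor, were detected. With Rspo2 4 rose and 1 fell, with Wnt3a 6 rose and with both 3 rose, with medians of 0.19, 0.20 and 0.09. Of the 17 genes, the count with Rspo2 is above the share over all probes, that with Wnt3a is near it and that with both is below it. These differences from the shares were not tested. *Slc7a11*, the cystine transporter, was the 1 called gene and fell by 1.23 with Rspo2 (adjusted p = 0.0271). Its relative signal was 0.0764, 0.0489 and 0.037 with BSA and 0.0341, 0.0212 and 0.0149 with Rspo2. These did not overlap, as for 43.5% of all detected probes. The sign of its change turned with normexp background correction (0.36, adjusted p = 0.824). The call was lost without BSA replicate 1 or 2 or Rspo2 replicate 2 or 3 (-0.94 to -1.27). Of 13 genes of ligand synthesis and tryptophan breakdown 12 were on the array and 3 were detected. *Maoa*, which deaminates tryptamine, rose by 0.48 and *Il4i1*, an amino acid oxidase, fell by 0.49 with both proteins, each under 2-fold. The *Il4i1* probe was dim, with a mean intensity of 60.7 units (adjusted p = 0.0317 by limma). Both genes were chosen after their values were seen.

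**Figure D5:**
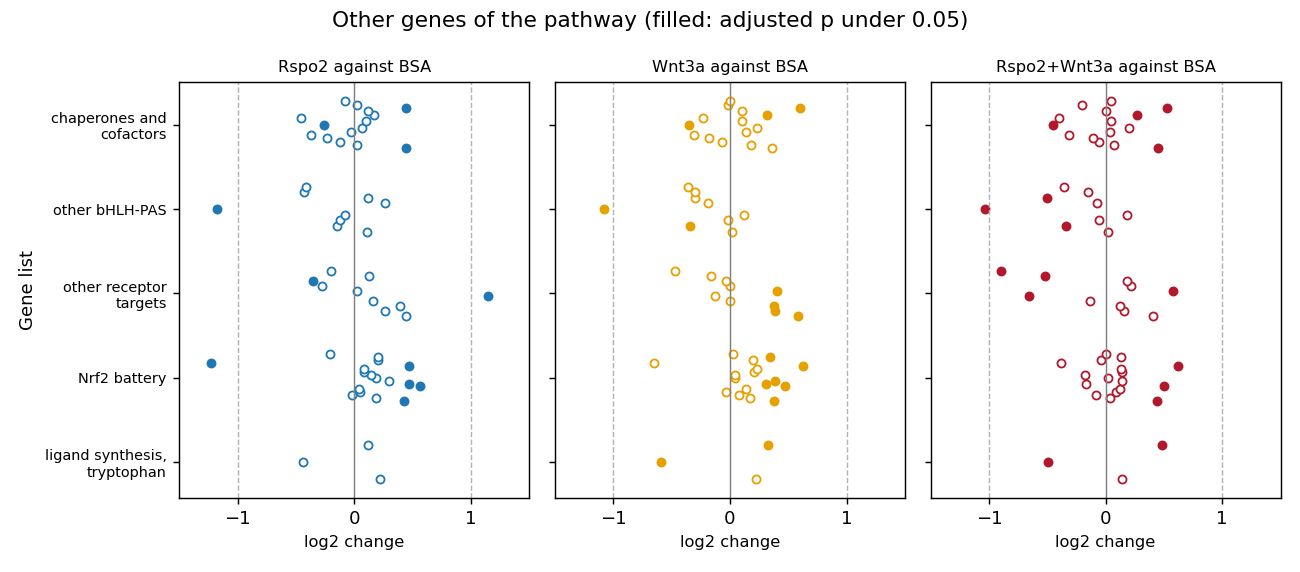
Log2 change against BSA (horizontal axis) of the detected genes of 5 lists (vertical axis), 1 panel per treatment and 1 point per gene, filled where the adjusted p was under 0.05, with dashed lines at 2-fold. Points beyond a dashed line are *Hif3a* in all 3 panels and *Inmt* (1.15) and *Slc7a11* (-1.23) with Rspo2.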

How the data were processed

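RNA of 12 C57MG cultures, 3 per treatment, was labeled with a single dye and hybridized to Agilent whole mouse genome arrays. The arrays were scanned and extracted with Agilent Feature Extraction 9.5.3.1 (named in the submitters' processing notes). The deposited intensity values are background-subtracted processed signals, not scaled between arrays. The authors also deposited a table of ratio values, each signal divided by the 75th percentile of its array, which served as an alternative here. The genome build of the probe coordinates was not given in the sources used here.

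Of 520548 spot values, 1327 flagged as uneven or as outliers were left out and none was saturated. Spots of a probe were averaged, converted to log2 and reduced by the array's 75th percentile. A probe printed more than once was above background on an array when at least 0.5 of its spots were. All 12 arrays entered 1 limma fit (limma 3.58.1, R 4.3.3) with a term per group and empirical Bayes variances (prior degrees of freedom 2.74). Alternatives were other background corrections, scalings, filters and tests, slide or replicate number as a block, and each array left out. An exact permutation test of 3 against 3 arrays cannot give p under 0.1, so it was not used. The number of arrays and the signal over background limit the precision. The fit was tested on simulated data.

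The members, the gene lists and the motifs were chosen with earlier results of these data known. From the 5 pathway lists, genes called at 2-fold in a comparison with BSA were named, at most 4 per list and comparison. The values of 1 list gene are not reported here. The list genes were named through their accession in the GRCm38.p6 annotation (22951 probes) or else by the symbol of the files. Promoters came from RefSeq, and 8 of the 10 members had one. Figures were drawn with matplotlib 3.10.9 in python 3.11.15.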

Additional observations from a re-analysis of the deposited data

Results flagged for a closer look

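The interaction of Rspo2 and Wnt3a was 1.75 on the log2 scale for *Ahr*: the effect of Rspo2 was 0.04 without Wnt3a and 1.79 with it, and the difference itself passed the test (limma, adjusted p = 0.000217). It kept its direction in all 25 alternatives in which it could be computed and its call in 24 of them. For *Inmt* the interaction was -1.68 (adjusted p = 0.000434): the effect of Rspo2 was 1.15 without Wnt3a and -0.53 with it. The cause of neither was tested. Groups of 3 arrays are too small to test single arrays as outliers.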

How the results depend on the processing

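The rise of *Ahr* with both proteins (2.70 to 3.08 over 28 alternatives) and its excess over Wnt3a alone (1.68 to 1.88) kept their direction and their calls in all 28. The *Ahr* rise with Wnt3a lost its call with a 75th percentile computed from the probes that were detected on every array (0.95, adjusted p = 0.000255), with the methods' t-test after adjustment (1.07) and with slide as a fixed term (1.06), and ran from 1.00 to 1.19 when 1 array was left out, falling under 2-fold without BSA replicate 3. The *Ahr* interaction lost its call with normexp background correction (1.58, adjusted p = 0.0963). The *Ahr* change with Rspo2, which was never called, turned to -0.06 with that 75th percentile and 0.00 with slide as a fixed term, and ran from -0.04 to 0.15 with 1 array left out.

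With normexp correction the sign turned for *Arnt* AK037762 (0.32) and *Slc7a11* (0.36) with Rspo2. With no fold requirement the member probes called were 2, 4, 4 and 3 with Rspo2, Wnt3a, both, and both against Wnt3a. With a looser detection flag they were 1 with Rspo2 and 2 with Wnt3a and for the interaction. With no filter on dim probes they were 2 with Wnt3a and for the interaction. The probe added in each case was that of *Arnt2*, which was well above background on 1 of 12 arrays, at 4.66 to 39.7 units. The counts were 0 for the interaction with normexp. With Wnt3a they were 0 under that 75th percentile, the adjusted t-test and slide as a fixed term. With both, the count was 1 under slide as a fixed term. With 1 array left out the counts were 0 to 1 with Wnt3a, 2 to 3 with both, and the main count otherwise. The cause of these shifts was not tested.

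Under median scaling the median change over all probes was 0.18, 0.33 and 0.26 with Rspo2, Wnt3a and both. It was -0.11 from Wnt3a to both and -0.28 in the interaction. That 75th percentile gave a median of -0.12 with Wnt3a, and normexp gave 0.15 with Rspo2 and -0.16 in the interaction. In the main fit the medians were 0.01, 0.00 and 0.04 with Rspo2, Wnt3a and both. They were 0 from Wnt3a to both and in the interaction. Deviations of samples with the same replicate number correlated at -0.525 to 0.322 (median 0.008, 18 pairs), so the numbers were not taken to pair samples. With the replicate number as a block *Ahr* changed by 0.04, 1.07 and 2.86, the counts of called members stayed at 0, 1 and 2, and the adjusted p rose to 0.0626 for *Aldh3a1* with Rspo2 and for *Tiparp* from Wnt3a to both, 0.0918 for *Arnt* AK037762 with Rspo2 and 0.116 for *Tiparp* from Rspo2 to Wnt3a. Low signal over background limits what can be said of *Arnt* AK037762, *Arnt2*, *Nqo1*, *Hif3a*, *Inmt*, *Il4i1* and *Slc7a11*.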
